A study of Mus musculus with 8 samples.

Results

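Bone morphogenetic proteins (BMPs) and growth differentiation factors (GDFs) are secreted signals of the TGF-beta superfamily, and this account follows 9 genes of that group in embryonic mouse kidneys. The 9 genes, out of 22180 measured, were taken by name: the ligand genes Bmp2, Bmp4, Bmp5, Bmp6, Bmp7 and Gdf11, the antagonist genes Grem1 and Nog, and Bmper, a secreted BMP-binding modulator. Each was read by 1 probe set, and all 9 were measured. RNA came from E14.5 kidneys (E, embryonic day) of 1 litter, from 4 embryos with the genotype Grb2 UB-cKO, in which Grb2 was knocked out in the ureteric epithelium, and 4 wild-type control embryos. The kidneys of each embryo were pooled, so an array stands for 1 embryo, and the labels name no treatment. The Cre driver and any other alleles of the groups were not named by the labels or the design text. GRB2 is an adaptor protein that couples activated receptor tyrosine kinases, RET among them, to the RAS and ERK cascade.

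A BMP dimer binds a complex of type I and type II serine/threonine kinase receptors, which phosphorylate SMAD1, SMAD5 and SMAD9, and these enter the nucleus with SMAD4. GDF11 signals through activin-type receptors and SMAD2 and SMAD3. In the developing kidney, BMP4 from mesenchyme around the nephric duct and ureter restrains budding and branching and supports ureteric smooth muscle, GREM1 relieves that restraint at the site of budding, BMP7 keeps nephron progenitors alive, and GDF11 is needed for Gdnf expression and outgrowth of the bud.

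The comparison asks how these signals and their inhibitors stood in the kidney after Grb2 was lost from its epithelium. Of the 9 genes, 4 rose (Bmp4, Bmp5, Bmp6 and Bmper), 2 fell (Bmp2 and Bmp7) and 3 did not pass the test (Gdf11, Grem1 and Nog). The test was limma on log2 probe-set values, with Benjamini-Hochberg adjustment over all 22180 genes and a threshold of 0.05. Over all genes 28.1% passed, 13.7% higher and 14.3% lower in Grb2 UB-cKO. Control and Grb2 UB-cKO values were fully separated for 6 of the 9 genes, the 6 that passed, against 31.2% of all genes. The median log2 fold change of the 9 genes was 0.11, beside 0.01 for all genes. As the genes were taken with earlier results of these data known, the counts describe this group only.

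Grb2 itself stood at 8.65 ± 0.03 in controls and 8.20 ± 0.12 in Grb2 UB-cKO (SD, n = 4 each), with no overlap between groups (log2 fold change -0.45, SE 0.07, adjusted p = 0.0017). Array medians were 6.61 to 6.72, and Pearson's r across genes was 0.975 to 0.989 between groups, against 0.991 to 0.996 within them, where genes are not independent replicates. Sex-linked expression was unevenly spread over the groups, so that sex and genotype were nearly confounded. Xist, of the inactive X chromosome, stood at 12.22 to 12.79 in control replicates 1, 2 and 4. It was 4.95 to 6.03 in the Grb2 UB-cKO embryos and 5.39 in control replicate 3. Averaged over Uty, Kdm5d and Eif2s3y, which lie on the Y chromosome, the signal was 9.94 to 10.10 in every Grb2 UB-cKO embryo and 9.94 in control replicate 3, but 4.09 to 4.24 in control replicates 1, 2 and 4. Results are therefore also given with that mean as a covariate (the Y-linked covariate), under which 5.62% of all genes passed, and where needed with control replicate 3 as the only control, under which 1.28% did. Grb2 then stood at -0.40 with the covariate (adjusted p = 0.100). In these fits the contrast rests largely or wholly on 1 control embryo.

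**Figure D1:**
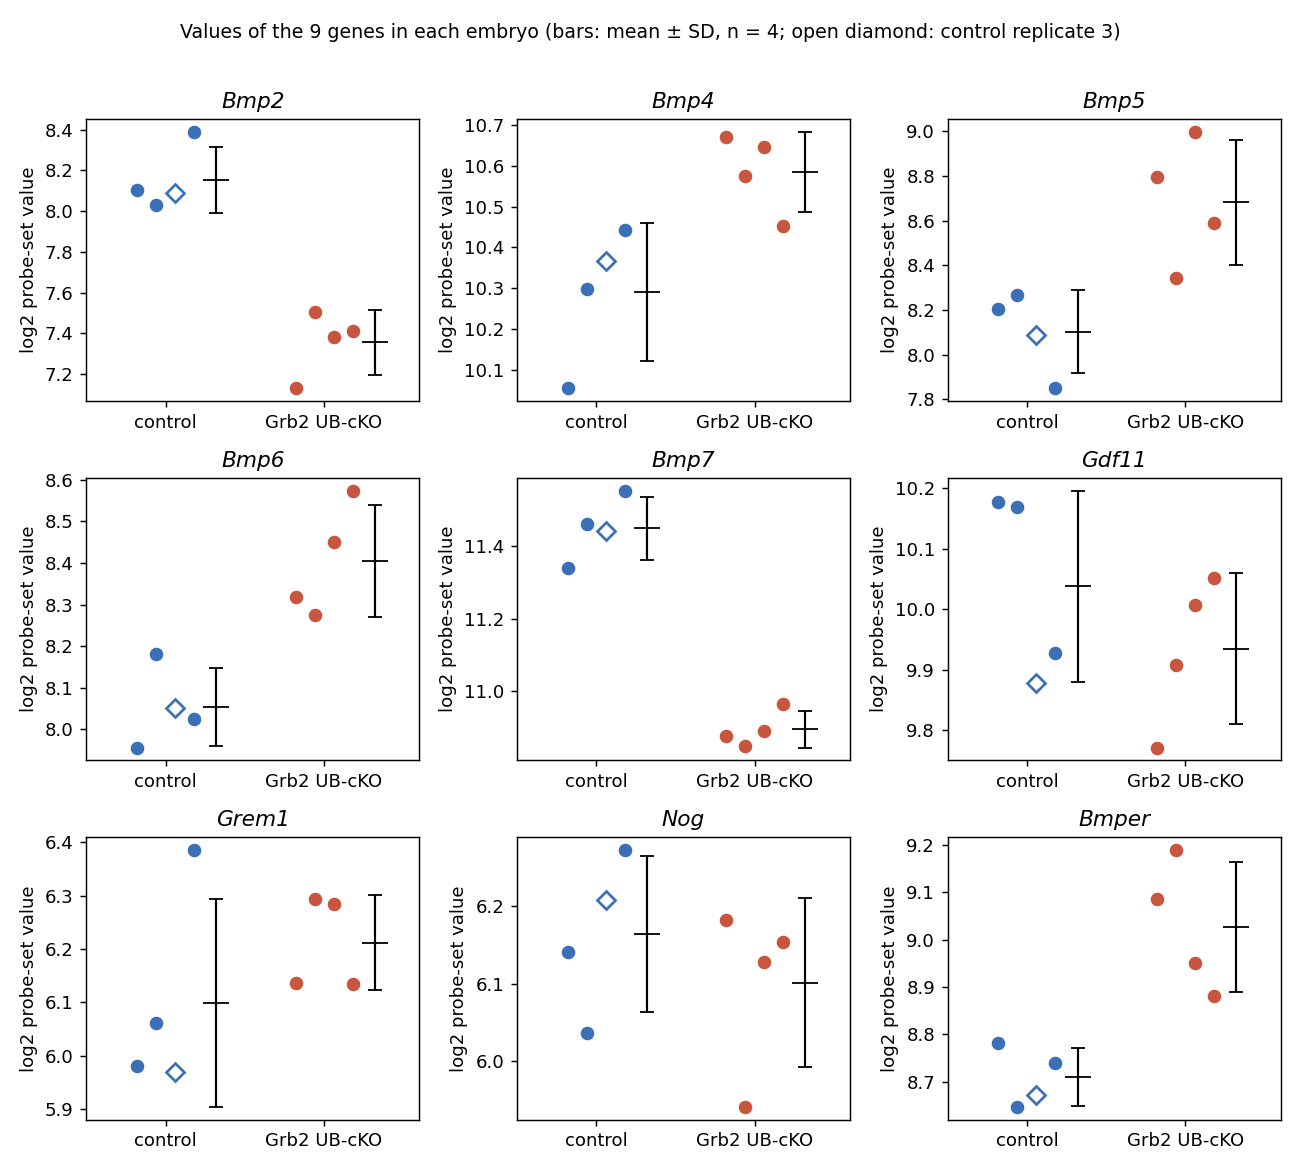
Log2 probe-set values of the 9 genes in each embryo (vertical axes, each with its own scale), for 4 control and 4 Grb2 UB-cKO embryos, with mean ± SD beside the points and control replicate 3, the control with high Y-linked values, as an open diamond. The groups do not overlap for Bmp2, Bmp4, Bmp5, Bmp6, Bmp7 and Bmper, with the narrowest gap for Bmp4 (0.008) and the widest for Bmp2 (0.53).

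Bmp2, which is expressed in condensing mesenchyme and early nephron structures and inhibits branching in explants, had the largest change of the 9 genes. Its log2 values in controls were 8.10, 8.03, 8.09 and 8.39 (replicates 1 to 4), and in Grb2 UB-cKO 7.13, 7.51, 7.38 and 7.41. Every control lay above every Grb2 UB-cKO embryo, with 0.53 between the nearest, and Grb2 UB-cKO replicate 1 was the lowest. The means were 8.15 ± 0.16 and 7.36 ± 0.16 (SD, n = 4 each), a log2 fold change of -0.80 (SE 0.11, 95% interval -1.03 to -0.56, adjusted p = 0.000538), or 57.6% of the control signal. With the Y-linked covariate Bmp2 still passed, at -0.73 (SE 0.18, adjusted p = 0.0475). In whole-kidney RNA, fewer cells of a type and less RNA per cell cannot be told apart. All 7 measured markers of the renal vesicle and early nephron also fell (median -0.49), and their mean level was 9.96 to 10.14 in controls and 9.30 to 9.42 in Grb2 UB-cKO. Of these 7, 2 passed the same way with the Y-linked covariate. The part of that shift in the Bmp2 result was not tested.

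Bmp7, a survival factor of nephron progenitors made by the ureteric epithelium and the cap mesenchyme, fell with the smallest SE of the 9 genes. Controls stood at 11.34, 11.46, 11.44 and 11.55, and Grb2 UB-cKO embryos at 10.88, 10.85, 10.89 and 10.97. The groups were 0.37 apart at their nearest, and the 4 Grb2 UB-cKO embryos lay closer together than the 4 controls. The means were 11.45 ± 0.09 and 10.89 ± 0.05 (SD, n = 4 each), a log2 fold change of -0.55 (SE 0.07, 95% interval -0.71 to -0.40), or 68.2% of the control signal (adjusted p = 0.00040). Bmp7 kept its call with the Y-linked covariate, at -0.55 (SE 0.12, adjusted p = 0.0337). Control replicate 3, at 11.44, lay among the other controls.

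Most listed markers of the cells that make Bmp7 moved the same way. In the ureteric tip list 8 of 9 genes fell and none rose (median -1.49), with mean levels of 8.93 to 9.20 in controls and 7.30 to 7.72 in Grb2 UB-cKO. In the wider list of ureteric epithelium and collecting duct 5 of 9 fell (median -0.38, mean levels 9.48 to 9.56 against 8.64 to 8.97), and in the nephron progenitor list 6 of 8 fell (median -0.93, 10.16 to 10.36 against 9.05 to 9.59). At an unadjusted limma p under 0.05, 1 gene of the tip list (Sox9, 0.39) and 1 of the progenitor list (Meox1, 0.30) were higher. The Y-linked covariate left 7 genes of the tip list, 3 of the wider list and 3 of the progenitor list past the threshold as lower. Their part in the fall of Bmp7 was not tested. With control replicate 3 as the only control neither gene that fell passed, although the values hardly moved: Bmp2 was at -0.73 (adjusted p = 0.0766) and Bmp7 at -0.55 (adjusted p = 0.0672).

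Bmp4, Bmp5 and Bmp6 were the ligand genes that rose. Bmp5, a close relative of Bmp6 and Bmp7 expressed in ureteric mesenchyme, had the largest rise of the 9 genes. Its controls stood at 8.21, 8.27, 8.09 and 7.85, and its Grb2 UB-cKO embryos at 8.796, 8.345, 8.999 and 8.592. The groups did not overlap, but Grb2 UB-cKO replicate 2 was only 0.077 above the highest control, and replicate 3 was the highest of the group. The means were 8.10 ± 0.18 and 8.68 ± 0.28 (SD, n = 4 each), a log2 fold change of 0.58 (SE 0.14, 95% interval 0.26 to 0.90), or 1.49-fold (adjusted p = 0.0127). With the Y-linked covariate the value was 0.61 (SE 0.24) and did not pass (adjusted p = 0.186).

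Bmp6, a ligand best known for its part in iron homeostasis in the liver, rose by 0.35 (SE 0.09, 95% interval 0.16 to 0.54, adjusted p = 0.0121), or 1.28-fold. Controls stood at 7.96, 8.18, 8.05 and 8.03, and Grb2 UB-cKO embryos at 8.32, 8.28, 8.45 and 8.57. Control replicate 2 was the highest control and lay 0.094 under the lowest Grb2 UB-cKO embryo. The means were 8.05 ± 0.09 and 8.40 ± 0.14 (SD, n = 4 each). With the Y-linked covariate Bmp6 was again at 0.35, but with an SE of 0.15 it did not pass (adjusted p = 0.208).

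Bmp4, the ligand of the mesenchyme around the ureter and duct, had the smallest change among the genes that passed, and the least secure call. Its controls stood at 10.05, 10.30, 10.37 and 10.44, and its Grb2 UB-cKO embryos at 10.67, 10.58, 10.65 and 10.45. Grb2 UB-cKO replicate 4 and control replicate 4 were 0.008 apart, so the groups barely separated. The means were 10.29 ± 0.17 and 10.59 ± 0.10 (SD, n = 4 each), and Bmp4 rose by 0.30 on the log2 scale (SE 0.09, 95% interval 0.08 to 0.51, adjusted p = 0.0418), or 1.23-fold. The call was lost under 10 of 17 alternatives, among them centring on array medians (0.29, adjusted p = 0.0712), the Y-linked covariate (0.22, adjusted p = 0.495) and the removal of any of 6 single embryos. Those 6 were control replicates 1, 2 and 3 and Grb2 UB-cKO replicates 1, 2 and 3, with values of 0.22 to 0.32 and adjusted p of 0.0577 to 0.103.

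Bmper, which encodes a secreted protein that binds BMPs and can dampen or promote their signal, rose beside these ligands. Controls stood at 8.78, 8.65, 8.67 and 8.74, and Grb2 UB-cKO embryos at 9.09, 9.19, 8.95 and 8.88. The lowest Grb2 UB-cKO embryo, replicate 4, was 0.099 above the highest control, and the controls lay close together. The means were 8.71 ± 0.06 and 9.03 ± 0.14 (SD, n = 4 each), a log2 fold change of 0.32 (SE 0.08, 95% interval 0.13 to 0.50), or 1.24-fold (adjusted p = 0.016). Without control replicate 2 Bmper just missed the threshold (0.29, adjusted p = 0.0512), and with the Y-linked covariate it stood at 0.36 (adjusted p = 0.176).

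Mesenchymal markers rose in the same embryos as Bmp4, Bmp5, Bmp6 and Bmper. In the renal stroma list 7 of 9 genes rose and none fell (median 0.66), with mean levels of 10.53 to 10.66 in controls and 11.03 to 11.21 in Grb2 UB-cKO. In the list of ureteric mesenchyme and smooth muscle 3 of 7 rose (median 0.48, mean levels 8.44 to 8.83 against 8.94 to 9.51). Markers of other cells rose as well: 5 of 5 for podocytes (median 0.73, 8.78 to 8.95 against 9.26 to 9.92), 5 of 7 for endothelium (0.28, 9.68 to 9.77 against 10.02 to 10.33), 5 of 7 for macrophages (0.93, 7.36 to 7.54 against 8.23 to 8.64) and 4 of 5 for erythroid cells (1.12, 6.60 to 7.35 against 7.73 to 8.18). The proximal tubule list had 0 of 5 past the threshold in limma (median 0.50, 8.14 to 8.75 against 8.44 to 9.56; 1 higher at an unadjusted p under 0.05), and the list of neural crest, glia and neurons 1 higher and 1 lower of 4 (median 0.09, 6.54 to 6.97 against 7.12 to 7.42). Fewer of these markers passed the same way once the Y-linked covariate was used: 4 for stroma, 2 for ureteric mesenchyme, 0 for podocytes (3 at an unadjusted limma p under 0.05), 0 for endothelium (4 unadjusted), 3 for macrophages and 1 for erythroid cells. The 2 calls of the neural crest, glia and neuron list, 1 higher and 1 lower, held with the covariate. Over all genes 5.62% passed with the covariate, against 28.1% without it. No detection calls were used here, so no marker can be given as absent. The part of these shifts in the rise of the 4 genes was not tested.

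Since these 4 genes moved the same way, the 250 bases before their RefSeq transcription starts are shown for comparison (build GRCm38.p6, 5′ to 3′ on the gene's strand). Capitals mark matches, on either strand, to any of 4 motifs, whose matches do not overlap here. The GC-rich element bound by BMP SMADs was searched as GGCGCC. The core element of ETS factors, the class of Etv4 and Etv5, was searched as CCGGAA. The E-box of helix-loop-helix factors was searched as CACGTG. The promoter element bound by the general factor TBP was searched as TATAAA.
Bmp4 (chr14:46390670-46390919, minus strand): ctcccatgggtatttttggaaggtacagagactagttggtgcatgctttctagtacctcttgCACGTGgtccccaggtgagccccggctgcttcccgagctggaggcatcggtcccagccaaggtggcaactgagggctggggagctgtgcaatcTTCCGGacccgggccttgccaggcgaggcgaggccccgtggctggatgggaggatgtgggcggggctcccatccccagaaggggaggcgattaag
Bmp5 (chr9:75775115-75775364, plus strand): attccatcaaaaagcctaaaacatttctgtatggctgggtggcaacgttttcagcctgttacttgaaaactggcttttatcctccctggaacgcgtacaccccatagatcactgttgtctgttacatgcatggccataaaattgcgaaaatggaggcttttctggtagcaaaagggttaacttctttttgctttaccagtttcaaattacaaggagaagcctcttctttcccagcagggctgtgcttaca
Bmp6 (chr13:38345466-38345715, plus strand): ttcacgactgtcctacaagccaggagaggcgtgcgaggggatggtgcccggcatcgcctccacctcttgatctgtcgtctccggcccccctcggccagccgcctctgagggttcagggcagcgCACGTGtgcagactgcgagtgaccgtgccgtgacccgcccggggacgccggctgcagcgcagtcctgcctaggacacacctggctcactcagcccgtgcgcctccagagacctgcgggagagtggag
Bmper (chr9:23222826-23223075, plus strand): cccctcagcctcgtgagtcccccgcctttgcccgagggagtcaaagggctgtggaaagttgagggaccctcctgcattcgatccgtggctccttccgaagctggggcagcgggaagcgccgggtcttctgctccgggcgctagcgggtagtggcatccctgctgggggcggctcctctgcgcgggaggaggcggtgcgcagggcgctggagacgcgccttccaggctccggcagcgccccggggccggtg

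None of the 4 motifs was found in all 4 windows. Bmp4 held 1 CACGTG, starting 188 bases before the start, and 1 CCGGAA on the other strand, 95 bases before it. Bmp6 held 1 CACGTG, 127 bases before its start, and Bmp5 and Bmper matched none of the 4 motifs. Among 32851 windows of the same length, 6.02% held CACGTG, 12% CCGGAA, 9.59% GGCGCC and 12.4% TATAAA. In base composition Bmp5 stood apart, with 42.8% G and C, against 63.2% for Bmp4, 68.8% for Bmp6, 71.6% for Bmper and a median of 52.4% over all windows. The RefSeq table matched 6 of the 9 genes, without Bmp2, Bmp7 and Nog. Of the matched genes that did not pass the test, Grem1 held 1 GGCGCC, 78 bases before its start. Gdf11 held 1 TATAAA, 185 bases before its start.

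**Figure D2:**
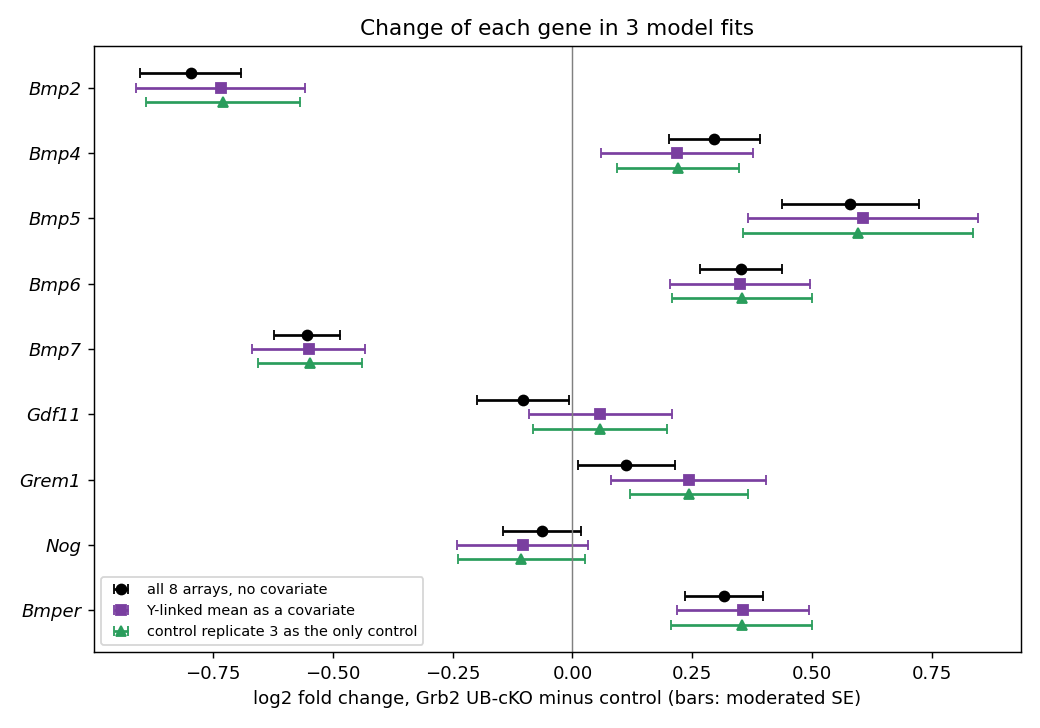
Log2 fold change (horizontal axis, Grb2 UB-cKO minus control) with its moderated SE for each of the 9 genes in 3 limma fits: all 8 arrays, the Y-linked mean as a covariate, and control replicate 3 as the only control. Bmp2 and Bmp7 lie to the left of 0 and Bmp4, Bmp5, Bmp6 and Bmper to the right in all 3 fits, with wider errors in the last 2, while Gdf11 moves from -0.10 to 0.06.

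Gdf11 did not pass the test. Controls stood at 10.18, 10.17, 9.88 and 9.93, and Grb2 UB-cKO embryos at 9.77, 9.91, 10.01 and 10.05. The groups overlapped, with control replicates 1 and 2 above all other embryos. Gdf11 stood at a log2 fold change of -0.10 (SE 0.10, 95% interval -0.32 to 0.11, adjusted p = 0.496), and its sign turned to 0.06 with the Y-linked covariate (adjusted p = 0.88) and with control replicate 3 as the only control (adjusted p = 0.871).

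The genes of the classical antagonists did not pass either. Grem1, the BMP antagonist that permits outgrowth of the bud, stood at 5.98, 6.06, 5.97 and 6.39 in controls and at 6.14, 6.29, 6.28 and 6.13 in Grb2 UB-cKO. Control replicate 4 was above every other embryo, and the other 3 controls were below all Grb2 UB-cKO embryos. Its log2 fold change of 0.11 did not pass (SE 0.10, 95% interval -0.11 to 0.34, adjusted p = 0.475), and without control replicate 4 it was 0.21 (adjusted p = 0.0809). Nog, which encodes noggin, an inhibitor that binds BMP2, BMP4 and BMP7, stood at 6.14, 6.04, 6.21 and 6.27 in controls and at 6.18, 5.94, 6.13 and 6.15 in Grb2 UB-cKO. The groups overlapped, and Nog stood at a log2 fold change of -0.06 (SE 0.08, 95% interval -0.24 to 0.12, adjusted p = 0.636). All 16 values of Grem1 and Nog lay below the median of the arrays, and no detection calls show whether they were above background.

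Differences between related genes were then taken within each array for 6 pairs, which shows unequal change but not which of the levels is higher. Bmp2 and Bmp4 are the closest ligands of their branch of the family. Bmp2 minus Bmp4 was -2.14 ± 0.16 in controls and -3.23 ± 0.23 in Grb2 UB-cKO (SD, n = 4 each), a difference of -1.09 (SE 0.14).

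In the BMP5, BMP6 and BMP7 branch, Bmp5 minus Bmp7 was -3.34 ± 0.26 in controls and -2.21 ± 0.28 in Grb2 UB-cKO, and Bmp6 minus Bmp7 was -3.39 ± 0.10 and -2.49 ± 0.09 (SD, n = 4 each). These 3 pairs set a gene that fell against one that rose, each with groups that did not overlap. Their separation follows from the values above, so their test results are not used. Bmp5 minus Bmp6, genes that both rose, was 0.05 ± 0.18 in controls and 0.28 ± 0.27 in Grb2 UB-cKO (SD, n = 4 each). Its groups overlapped, and the difference of 0.23 (SE 0.16) did not pass an exact permutation test (two-sided, over all 70 ways to label 4 of the 8 arrays, p = 0.257, Benjamini-Hochberg adjusted over the 6 pairs 0.257).

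Against Grem1, Bmp7 minus Grem1 was 5.35 ± 0.13 in controls and 4.68 ± 0.13 in Grb2 UB-cKO, and Bmp4 minus Grem1 was 4.19 ± 0.16 and 4.37 ± 0.11, with overlapping groups (SD, n = 4 each). As Grem1 may be at background, these values are a description, and their test results are not used.

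**Figure D3:**
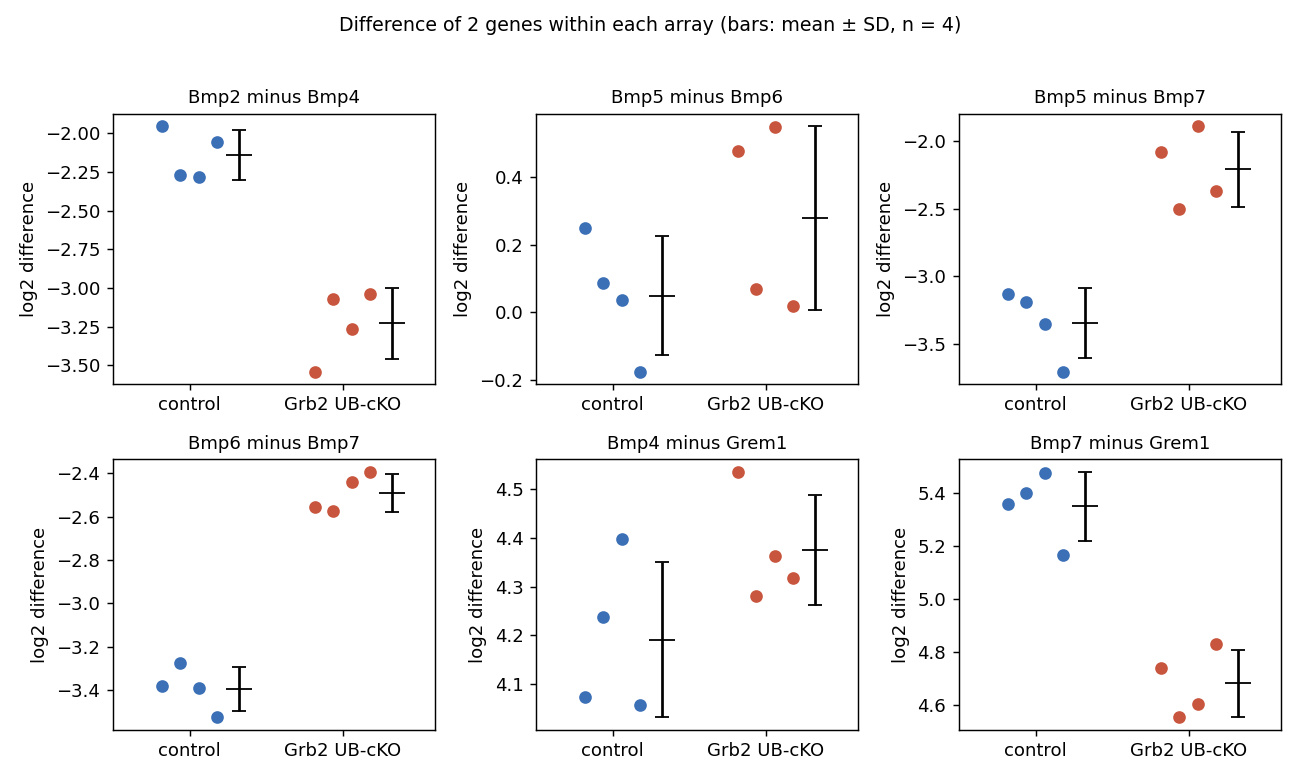
Difference of the log2 values of 2 genes within each array (vertical axes, log2 scale), for 4 control and 4 Grb2 UB-cKO embryos, with mean ± SD. Bmp2 minus Bmp4, Bmp5 minus Bmp7, Bmp6 minus Bmp7 and Bmp7 minus Grem1 separate the groups, and Bmp5 minus Bmp6 and Bmp4 minus Grem1 do not.

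Other genes of the pathway were read from 5 lists with 67 measured genes, of which 18 rose and 3 fell, or 31.3% in all, near the 28.1% of all genes. By direction the lists were uneven, whereas 13.7% of all genes were higher and 14.3% lower. This unevenness was not tested. Among other BMP, GDF and activin ligand genes 5 of 16 rose and none fell (median 0.14). Bmp3, an atypical member that opposes other BMPs, rose 1.94-fold, from 9.19 ± 0.14 to 10.14 ± 0.05 (SD, n = 4 each; log2 fold change 0.95, SE 0.08, adjusted p = 7.59e-05), and Gdf10, its closest relative, rose by 0.95 (SE 0.12, adjusted p = 0.000476). Inhba, the activin A subunit gene, rose by 0.77 (SE 0.15) and Gdf6 by 0.57 (SE 0.09). All 8 values of Gdf6 (5.37 to 6.22) lay below the array medians. So did the 4 controls of Inhba (5.90 to 6.34) and its Grb2 UB-cKO replicate 2 (6.46). No detection calls show whether these values were above background. The fifth, Inha, the inhibin alpha subunit gene, rose by 0.48 (SE 0.08) and was named after its value was seen. Bmp3 and Gdf6 also passed with the Y-linked covariate, while Gdf10 at 0.67 (adjusted p = 0.0534), Inhba at 0.80 (adjusted p = 0.111) and Inha at 0.40 (adjusted p = 0.130) did not.

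Secreted modulators moved the same way, with 6 of 18 higher and none lower (median 0.19). Chrd, which encodes the BMP antagonist chordin, rose 2.27-fold, from 6.97 ± 0.25 to 8.15 ± 0.47 (SD, n = 4 each; log2 fold change 1.19, SE 0.22, adjusted p = 0.00285). Bmp1, which despite its name encodes a protease that cleaves chordin and procollagens, rose by 0.69 (SE 0.07, adjusted p = 0.000203) and was the only gene of this list to pass with the Y-linked covariate. Chrd then stood at 0.99 (adjusted p = 0.146). The other 4 that rose were Kcp, Vwc2, Nbl1 and Twsg1, at 0.22 to 0.50, named after their values were seen. These 4 encode secreted proteins that bind BMPs, and all 8 values of Vwc2 (5.57 to 6.44) lay below the array medians.

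Among receptor and co-receptor genes 4 of 14 rose and 2 fell (median 0.06). The type I receptor gene Bmpr1b fell by 0.46 (SE 0.07, adjusted p = 0.00135), from 8.15 ± 0.11 to 7.70 ± 0.05, and the type II receptor gene Bmpr2 rose by 0.38 (SE 0.07, adjusted p = 0.00326), from 12.39 ± 0.07 to 12.78 ± 0.09 (SD, n = 4 each). The others, named after their values were seen, were Rgmb (0.32), the decoy receptor gene Bambi (0.29) and Acvr1 (0.27), which rose, and Acvr2a, which fell by 0.30. The groups overlapped for Acvr1, whose call was also lost centred on array medians (0.26, adjusted p = 0.0656) and without control replicates 2, 3 or 4 or any of Grb2 UB-cKO replicates 2, 3 and 4 (0.22 to 0.30, adjusted p 0.0507 to 0.120). Bambi lost its call without control replicates 1, 2 or 3 or Grb2 UB-cKO replicate 3 (0.22 to 0.29, adjusted p 0.0593 to 0.0668). With the Y-linked covariate Bmpr1b stood at -0.38 (adjusted p = 0.104) and Bmpr2 at 0.38 (adjusted p = 0.113). No gene of this list passed with the Y-linked covariate in limma, where 3 were higher and 2 lower at an unadjusted p under 0.05. Over all genes 5.62% passed in that fit.

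Of SMAD and SMURF genes 1 of 10 rose and 1 fell (median 0.03). Smad7, an inhibitory SMAD gene that BMP and TGF-beta signals induce, fell by 0.50 (SE 0.08, adjusted p = 0.00103), from 9.35 ± 0.10 to 8.85 ± 0.09 (SD, n = 4 each). Smad5, at 0.26 (SE 0.08, adjusted p = 0.0383), was named after its value was seen. It lost its call centred on array medians (0.25, adjusted p = 0.0836) and without control replicates 1, 2 or 3 or Grb2 UB-cKO replicates 1 or 4 (0.21 to 0.28, adjusted p 0.0582 to 0.112). With the Y-linked covariate Smad7 stood at -0.36 (adjusted p = 0.106). In the list of BMP target genes, which shares Smad6, Smad7, Smad9 and Bambi with the lists above, 3 of 13 rose and 1 fell (median -0.01). Gata2, a transcription factor gene, rose by 0.72 (SE 0.13, adjusted p = 0.00224). Dlx5, named after its value was seen, rose by 0.44 (SE 0.14, adjusted p = 0.0436), a call lost after quantile normalization (0.43, adjusted p = 0.0606), centred on array medians (0.43, adjusted p = 0.0664) and without control replicates 1 or 2 or Grb2 UB-cKO replicates 3 or 4 (0.34 to 0.42, adjusted p 0.0961 to 0.118). Its 4 controls (5.75 to 6.19) and Grb2 UB-cKO replicates 1, 2 and 3 (6.22 to 6.59) lay below the array medians. With the Y-linked covariate Gata2 stood at 0.54 (adjusted p = 0.153). The 4 Id genes, the targets most often used to read BMP signalling, did not pass, with values of -0.21 to 0.13 (adjusted p 0.226 to 0.934).

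**Figure D4:**
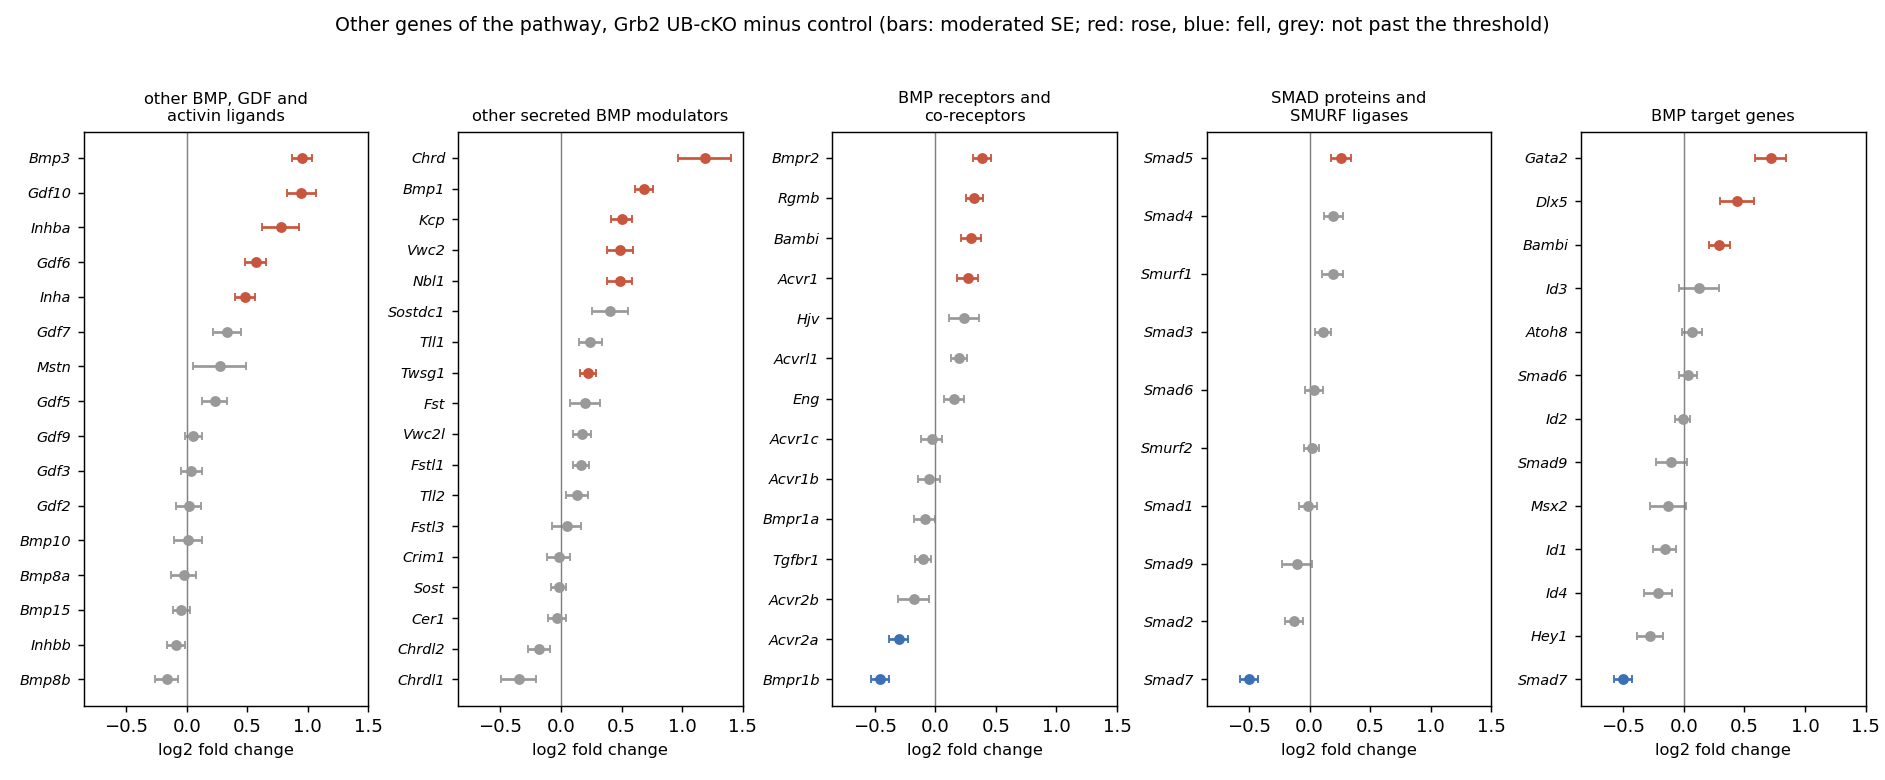
Log2 fold change (horizontal axes, Grb2 UB-cKO minus control) with its moderated SE for the measured genes of the 5 pathway lists, coloured by the test (red rose, blue fell, grey did not pass). In the ligand and modulator lists 5 and 6 genes rose and none fell, while in the BMP target list most genes are near 0.

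Other genes with a profile like that of a member were looked for by the root mean square distance between log2 values over the 8 arrays, each gene centred on its own mean. This was done for Bmp2, Bmp5 and Bmp7, which passed with a change of at least 0.5. The nearest to Bmp2 were Taf4b (distance 0.063), C2cd4a (0.064) and Greb1 (0.090), where the median distance over genes was 0.44. The nearest to Bmp7 were Nop9 (0.024), Nup210 (0.029) and Rps20 (0.034), against a median of 0.32. The nearest to Bmp5 were Pdlim3 (0.114), Tmem72 (0.119) and Dbh (0.119), against 0.38. All 9 moved in the direction of their member, as the measure requires, with log2 fold changes of -0.73 to -0.81 for those near Bmp2, -0.52 to -0.56 near Bmp7 and 0.58 to 0.63 near Bmp5.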

How the data were processed

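RNA of 8 embryos was measured on 1-colour arrays, from 200 ng of total RNA per sample amplified with an Ambion WT kit, per the labels' protocols. The deposited values are log2 probe-set values made by the authors with the Transcriptome Analysis Console, per the submitters' processing notes. Version, background correction and normalization were not given in the sources used here. The log2 scale was read from the deposited values (1.25 to 14.08). No detection calls or scan dates were used, and the number of arrays limits the precision.

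Of 41345 probe sets, 23521 had 1 gene symbol in the platform's annotation, 1814 several and 16010 none. Symbols were updated through Entrez identifiers to the RefSeq gene table of GRCm38.p6 for 23328. Where a gene had several probe sets, the brightest on average was used. The groups were compared without covariates in limma 3.58.1 (R 4.3.3), over 22180 genes. Log2 fold changes are Grb2 UB-cKO minus control. Replicate numbers follow record order. The litter is shared, and separate embryos are the replicates.

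The 9 genes, lists and motifs were chosen with earlier results of these data known. Named are the 9 genes, Grb2, pathway genes past the threshold with a change of at least 0.5 on the log2 scale (otherwise the 2 of smallest p in a list) and the 3 nearest profiles. Predicted genes and small RNAs were left out of the profiles. Of the pathway genes listed, 72 in all, 67 were measured. Alternatives were quantile normalization, array medians, no dim genes, mean of probe sets, all probe sets, trended and robust spread, array weights, the Y-linked covariate, control replicate 3 alone, each embryo left out, and a threshold of 0.01.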

Additional observations from a re-analysis of the deposited data

Results flagged for a closer look

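Among 38 genes checked in each group of 4 embryos, 5 single embryos stood apart from the other 3 by more than Dixon's 95% critical value allows, and none of them was in the 9 BMP genes. Chance gives about 1 in 20 groups. Chrd stood at 8.86 in Grb2 UB-cKO replicate 4, against 7.88 to 7.97 in the other Grb2 UB-cKO embryos. Kcp stood at 8.64 in control replicate 3, against 8.44 to 8.46 in the other controls, and Bambi at 9.90 in Grb2 UB-cKO replicate 3, against 9.58 to 9.63. Taf4b stood at 7.45 in Grb2 UB-cKO replicate 1, against 7.72 to 7.74, and at 8.55 in control replicate 4, against 8.34 to 8.37.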

How the results depend on the processing

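The sign of the 9 genes held in 151 of 153 alternative values, and the 2 exceptions were Gdf11 at 0.06 with the Y-linked covariate and with control replicate 3 as the only control. The count includes settings that leave each log2 fold change as it was, so no sign could turn there. These are leaving out dim genes, the mean of probe sets, all probe sets, and the trended and robust spread. With the covariate Bmp4 was at 0.22, Bmp5 at 0.61, Bmp6 at 0.35 and Bmper at 0.36, none past the threshold. So 0 of the 9 genes were higher (3 at an unadjusted limma p under 0.05) and 2 lower, where 5.62% of all genes passed. The fit with control replicate 3 as the only control rests on 1 control embryo. It put Bmp2 at -0.73, Bmp4 at 0.22, Bmp5 at 0.60, Bmp6 at 0.35, Bmp7 at -0.55 and Bmper at 0.35. Bmp4 also missed the threshold centred on array medians (0.29) and over all probe sets (0.30). At an adjusted p of 0.01, 0 of the 9 genes were higher, where 3809 of all 22180 genes passed in either direction. Leaving out single embryos gave 0.22 to 0.35 for Bmp4, 0.26 to 0.36 for Bmper, and 2 to 4 genes higher.

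Of the other pathway lists, with the covariate 2 ligand genes, 1 modulator gene, 0 receptor genes in either direction, 0 SMAD genes in either direction and 0 target genes in either direction passed. With control replicate 3 as the only control the counts were 1, 0, 0, 0 and 0. Over all probe sets 2 receptor genes, 0 SMAD genes and 1 target gene were higher. At 0.01, 2 receptor genes were higher and 1 lower, 0 SMAD genes and 1 target gene higher. SMAD genes that were higher numbered 2 after quantile normalization, 0 after centring and 2 with the trended spread, target genes lower 2 with the trended spread and 2 with array weights, and modulator genes lower 1 with array weights. Without single embryos, the ranges were 0 to 1 for ligand genes lower, 0 to 1 for modulators lower, 2 to 4 for receptors higher, 0 to 1 for SMAD genes higher, and 1 to 3 and 1 to 2 for target genes higher and lower. Bmp4 minus Grem1 ranged from 0.13 to 0.25. The cause of these changes was not tested. Over all genes 6227 passed, 1246 with the covariate, 285 with control replicate 3 alone and 3809 at 0.01. No paired analysis was possible because the labels give no replicate numbers shared between groups. Weak signals such as Grem1 and Nog cannot be told from background here.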
